A study of Mus musculus with 16 samples.

Results

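The cytosolic ribosomal protein genes encode the proteins of the large and the small subunit of the ribosome that translates nuclear messenger RNA. They were chosen here by name, as genes whose symbol is Rpl or Rps followed by a number and at most the letter a or x, together with Rplp0, Rplp1, Rplp2 and Rpsa, and by a minimum of 10 counts in at least 4 of 16 libraries. The rule took 76 genes of the 54532 entries of the count table: 43 of the large subunit, 30 of the small subunit and the 3 genes of the ribosomal stalk (Rplp0, Rplp1 and Rplp2). All 76 that matched by name also passed the minimum of counts, and all 76 entered the tests.

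The series holds 16 RNA-seq libraries of brain tissue from 9-month-old female mice, in 4 groups of 4. The groups crossed Ch25h, the gene of an enzyme that hydroxylates cholesterol, either intact (Ch25h+/+) or deleted (Ch25h-/-), with tau status, labelled as negative (Tau-) or positive (Tau+). The names Ch25h+/+ Tau- (Ch25h intact, no tau), then Ch25h+/+ Tau+, next Ch25h-/- Tau- and last Ch25h-/- Tau+ are used, and values for 4 groups follow this order; the tau construct, its promoter and the strain background are not given in the sources used here, and nothing beyond sex and age is stated to be shared. Frontal cortex is the tissue on the sample labels, whereas the series' design text speaks of hippocampus; all 6 markers of cortical excitatory neurons were read in every library, at a summed 1744 to 2284 CPM (counts scaled to a common library size). Of 6 hippocampal markers, 4 had at least 10 counts in every library (Dsp and Lct did not), and the 6 summed to 121 to 271 CPM.

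Ribosomal proteins are made in step with one another, since each ribosome carries 1 copy of nearly every one of them. Their messenger RNAs are short and abundant, and most begin with a run of pyrimidines, the terminal oligopyrimidine tract, through which mTOR signalling and the binding protein Larp1 set how strongly they are translated. In the brain, ribosomal proteins are known for local synthesis in neurites, and several are known for binding Mdm2, the inhibitor of p53, when ribosome assembly is disturbed.

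The first bases around the transcription start are shown because an oligopyrimidine tract, where a messenger RNA has one, begins at its start, for the members that passed the test in a comparison described further on. Promoter sequences were taken from RefSeq (build GRCm38.p6), which gave an entry for 56 of the 76 members; Rps29, Rpl8 and Rps20 had none. Each line shows 30 bases, 15 before the annotated start and 15 from it onward, 5′ to 3′ on the strand of the gene, with every run of 5 or more C or T in capitals. Rps9 lies at chr7:3704026-3704055 (+), Rps18 at chr17:33955651-33955680 (-), Rpl13 at chr8:123102335-123102364 (+), Rplp2 at chr7:141447636-141447665 (+), Rpl28 at chr7:4792950-4792979 (+), Rplp0 at chr5:115559452-115559481 (+) and Rps3 at chr7:99483695-99483724 (-).
Rps9: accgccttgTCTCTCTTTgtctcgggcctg
Rps18: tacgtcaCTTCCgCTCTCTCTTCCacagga
Rpl13: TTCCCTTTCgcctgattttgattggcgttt
Rplp2: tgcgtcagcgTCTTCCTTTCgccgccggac
Rpl28: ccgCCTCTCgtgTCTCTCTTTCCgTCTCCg
Rplp0: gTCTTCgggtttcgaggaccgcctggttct
Rps3: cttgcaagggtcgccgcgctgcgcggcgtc

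A run stands in 6 of these windows. In those of Rpl13 and Rplp0 it lies wholly before the annotated start, and the window of Rps3 at its annotated RefSeq start holds none. Over the 56 members with an entry, 42 (75.0%) had a run of at least 5 C or T that overlapped the stretch from 10 bases before to 10 bases after a start, against 49.0% of the 27025 genes of the same table. The letters CCGGAAGT or their reverse complement ACTTCCGG, the core of an ETS motif, stood in the 300 bases around the start of 11 members (19.6%), among them Rps18, and in 4.3% of all genes. AAGATGGC or GCCATCTT, the core of the YY1 motif, stood in 5 members (8.9%) and 3.2% of all genes, and TATAAA in the 50 bases before the start in 0 members and 3.2% of all genes. These are matches of letters on the windows named and say nothing of binding.

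The libraries held 15530352 to 25602500 counts. Ch25h was read at 5 to 30 counts in each Ch25h+/+ library and at 0 counts in each Ch25h-/- library. CT010467.1, a ribosomal RNA transcript, stood at 2289 to 5684 CPM in 7 of the 8 Ch25h-/- libraries and at 111 to 475 CPM in the other 9, which include Ch25h-/- Tau+ replicate 1 at 153 CPM. The 7 rRNA-rich libraries were also those in which the level of genes at large ran against GC content. Spearman correlations of each gene's deviation from its own mean with GC content were taken over annotated genes averaging at least 50 counts. They were -0.50 to -0.34 in these 7 and 0.07 to 0.48 in the other 9, and are not values of the 76 members alone. Malat1, a nuclear non-coding RNA, stood at 392 to 1041 CPM in the 7 and at 167 to 290.3 CPM in the 9. Mitochondrial genes took 3.78 to 4.57% of counts in the 7 and 2.79 to 3.68% in the 9. The library class and Ch25h loss cannot be told apart beyond that 1 library. Nothing in the labels states that the 4 libraries of a group came from separate animals, so the p-values measure the spread between libraries, which may be technical.

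The 76 members took about 1% of all counts. Their share was 0.885%, 0.903%, 0.937% and 1.02% in the 4 Ch25h+/+ Tau- libraries. It was 1.24%, 0.879%, 0.844% and 0.963% in Ch25h+/+ Tau+. It was 0.890%, 0.794%, 0.792% and 0.851% in Ch25h-/- Tau-, and 0.860%, 0.825%, 0.878% and 0.794% in Ch25h-/- Tau+. The first Ch25h+/+ Tau+ library stood above the other 15, and each of the other 3 groups kept within a narrow band. The group means were 0.935% ± 0.0578, 0.983% ± 0.181, 0.832% ± 0.0475 and 0.839% ± 0.0372 (SD, n = 4), and the Ch25h+/+ Tau+ mean without replicate 1 was 0.896% ± 0.0610 (SD, n = 3). In bulk tissue, fewer cells of a type and less RNA per cell cannot be told apart in such a share.

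**Figure D1:**
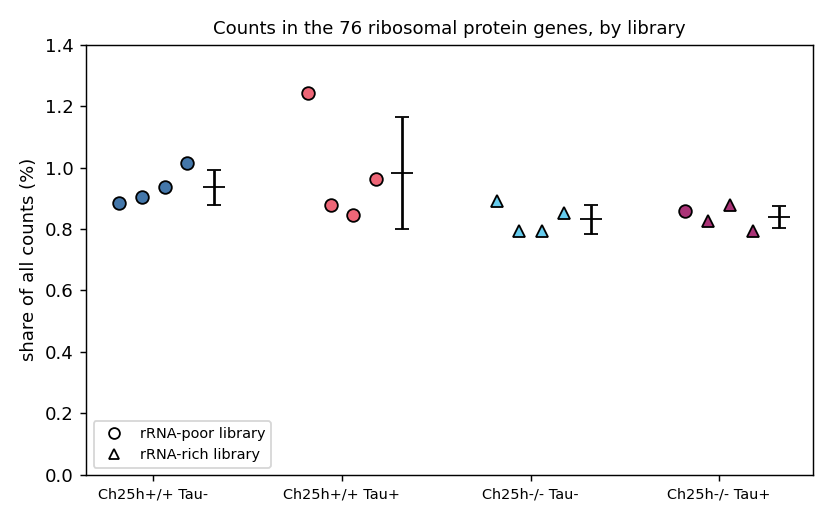
Share of all counts taken by the 76 cytosolic ribosomal protein genes (y axis, percent) in each of the 16 libraries, by group on the x axis. Points are libraries (circles rRNA-poor, triangles rRNA-rich) and bars give the mean ± SD of 4; Ch25h+/+ Tau+ replicate 1, at 1.24%, stands above the other 15.

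Ch25h+/+ Tau+ replicate 1 was high in every member: all 76 stood above their own mean over the 16 libraries there, with a median deviation of 0.46 (log2). In the other 15 libraries that median was between -0.20 and 0.21. In replicate 1 the deviation of genes at large also ran with transcript length and GC content (Spearman correlation -0.56 and 0.39). These correlations were taken over annotated genes averaging at least 50 counts, not over the 76 members. The members called with Ch25h loss in Tau+ are therefore also given without replicate 1.

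**Figure D2:**
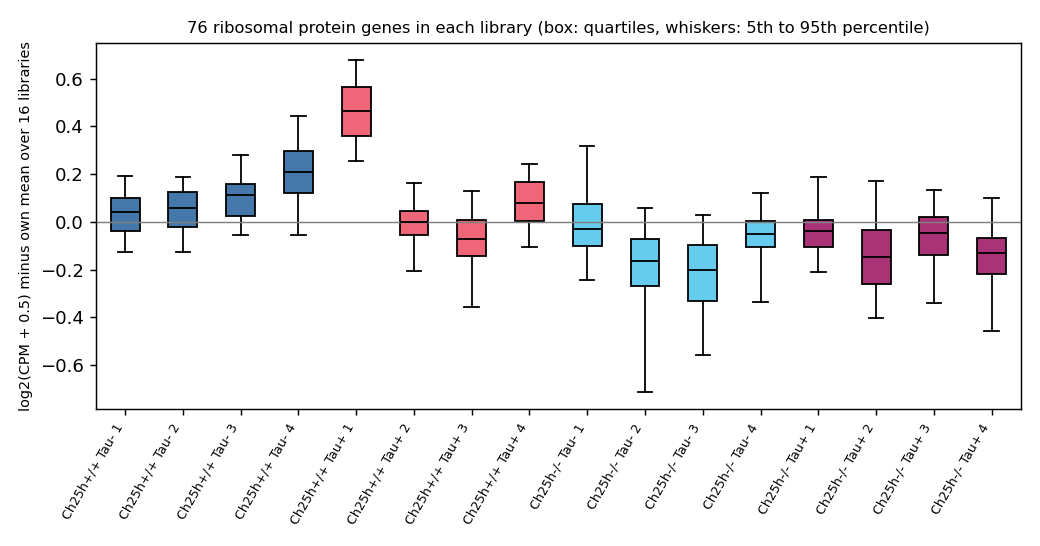
Deviation of each member from its own mean over 16 libraries, as log2 of CPM plus 0.5 (y axis), in each library (x axis), as boxes of the quartiles with whiskers from the 5th to the 95th percentile of 76 genes. The box of Ch25h+/+ Tau+ replicate 1 is centred on 0.46 and those of the other libraries between -0.20 and 0.21.

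The members spanned a wide range of levels. Mean CPM over the 16 libraries ran from 0.621 to 413, with a median of 105. Per kilobase of coding sequence the highest level was that of Rpl41, the smallest ribosomal protein, at 2137 CPM on 75 coding bases. The Rpl41 transcript has 437 bases, and levels were not ranked per transcript length. Rplp1, an acidic protein of the stalk that recruits translation factors, followed at 966 CPM per kilobase, and Rps15, a small-subunit protein of the decoding head, at 479. The lowest were Rpl24 at 1.32, Rps10 at 7.03 and Rpl13a at 22.9 CPM per kilobase. Each of these 3 overlaps another annotated gene (Gm28037, RPS10-NUDT3 and Gm45713), and reads from the overlap cannot be assigned from sequence to 1 gene. More widely, 69 of 76 members shared at least 20% of their 50-base words with another gene, mostly processed pseudogenes, and the median member shared 55.5%, so that levels of single members are uncertain where reads could go to copies.

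After the median over members was subtracted in each library, the SD of what remained had a median of 0.11 (log2) over the 76 and was under 0.25 in 65 of them. Rpl19 (SD 0.04), Rpl10a (0.05) and Rplp1 (0.05), which lie in the large subunit and the stalk, varied least. Rpl29 (2.40), Rps27 (0.67), Rpl17 (0.52), Rps27a (0.47) and Rpl21 (0.38) varied most, and no other member passed 0.28. These 5 are described after the group comparisons.

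Loss of Ch25h in Tau- brains asked how the members differ between the 2 tau-negative groups. Of the 76 members, 68 stood lower in Ch25h-/- Tau- than in Ch25h+/+ Tau-, with a median log2 difference of -0.19, where the median over all 17736 genes tested was 0.01 and 48.64% were lower. With edgeR's quasi-likelihood test and Benjamini-Hochberg adjustment over all genes, 1 member fell, Rps29, and 0 rose, against 0.812% of all genes called lower and 0.214% higher. At an unadjusted p under 0.05, 33 members were lower and 0 higher (11.3% of all genes were lower at that level). In 34 members the 4 libraries of 1 group all lay below the 4 of the other, in the direction of lower levels in Ch25h-/-, against 8.58% of all genes. The median log2 difference was -0.26 over the 30 small-subunit genes, -0.18 over the 43 large-subunit genes and -0.26 over the 3 stalk genes.

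Rps29, a zinc-finger protein of the small-subunit head, stood at 73.3, 69.9, 77.9 and 88.1 CPM in Ch25h+/+ Tau- and at 62.8, 38.9, 37.1 and 52.1 in Ch25h-/- Tau-. The groups did not overlap. The log2 difference was -0.70 ± 0.16 (SE; edgeR adjusted p = 0.0497), just inside the threshold of 0.05. In Tau+ brains it stood at 102, 69.6, 75.4 and 75.7 CPM with Ch25h and 69.2, 45.0, 65.3 and 59.2 without, again with no overlap, at -0.43 ± 0.16 and an adjusted p of 0.119. Rps29 was past the threshold in 7 of 12 other settings of the analysis and in 2 of the 16 fits that left out 1 library. Its difference ran from -0.85 to -0.40 over these settings and fits, with -0.40 under the library class covariate. The count of members past the threshold was 24 with replicate 1 of Ch25h+/+ Tau+ left out and 5 with replicate 1 of Ch25h-/- Tau+ left out, although neither library belongs to the groups compared. The count over all genes moved with it, from 182 to 1318 and 498. The count of members was 0 in each of the other 14 such fits, in which 3 to 221 of all genes were called. The 221 came without Ch25h-/- Tau- replicate 4, so there the count over all genes rose while that of members fell.

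In Tau+ brains the same contrast gave 70 of 76 members lower in Ch25h-/-, with a median log2 difference of -0.23 against 0.00 over all genes, of which 49.34% were lower. With edgeR's quasi-likelihood test and Benjamini-Hochberg adjustment, 9 members fell and 0 rose, against 2.4% of all genes called lower and 1.14% higher. At an unadjusted p under 0.05 there were 33 lower members and 1 higher (12.3% of all genes lower), and in 16 members the groups did not overlap, all lower in Ch25h-/- (5.75% of all genes). The 9 were 4 of the small subunit (Rps9, Rps18, Rps3 and Rps20), 3 of the large subunit (Rpl13, Rpl8 and Rpl28) and 2 of the stalk (Rplp0 and Rplp2). Rpl8 and Rpl28 lie outside the rule for named genes; they are named because their values had been seen. The median log2 difference was -0.22 over the small-subunit genes, -0.21 over the large-subunit genes and -0.28 over the stalk genes.

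**Figure D3:**
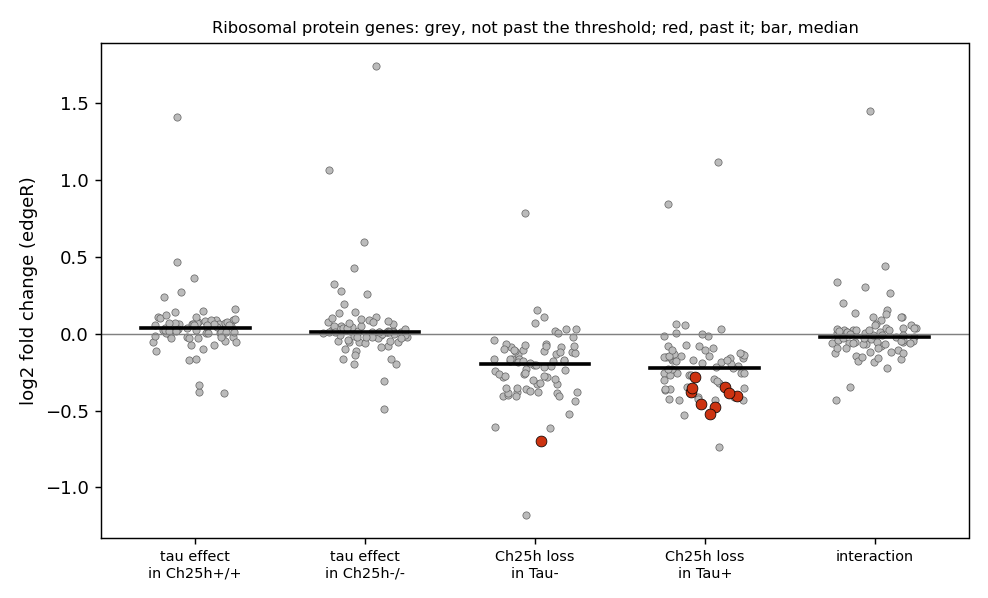
Log2 difference of each of the 76 members (y axis) in the 5 comparisons (x axis), in red where the member passed the test and grey where it did not; black bars are medians. The members lie around 0 in both tau effects and mostly below 0 in both effects of Ch25h loss, with medians of -0.19 in Tau- and -0.23 in Tau+.

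Among small-subunit proteins, Rps9, which helps hold the body of the subunit and its decoding accuracy, stood at 205, 154, 138 and 167 CPM in Ch25h+/+ Tau+ and 133, 111, 109 and 108 in Ch25h-/- Tau+. Every Ch25h-/- library lay below every Ch25h+/+ library. The log2 difference was -0.52 ± 0.11 (SE; edgeR adjusted p = 0.0145), and it was past the threshold in 10 of 12 other settings and 13 of 16 leave-one-out fits. In Tau- brains Rps9 stood at 141, 155, 151 and 153 against 125, 116, 97.3 and 114 CPM, with no overlap, at -0.40 ± 0.11 (edgeR adjusted p = 0.0651). Rps18, which lies in the head and contacts the large subunit, stood at 155, 106, 106 and 119.9 against 101, 76.5, 85.1 and 86.4 CPM in Tau+, a difference of -0.48 ± 0.11 (edgeR adjusted p = 0.0299). It overlaps Vps52 on the opposite strand, and the counting is not stated to use strand. Rps3, at the entry of the messenger RNA channel, stood at 255, 191, 188 and 205 against 184, 163, 160.0 and 149 CPM, a difference of -0.36 ± 0.09 (edgeR adjusted p = 0.0444). Rps20, a protein of the head, stood at 117, 81.6, 76.9 and 85.8 against 74.9, 68.3, 67.4 and 65.7 CPM, a difference of -0.38 ± 0.10 (edgeR adjusted p = 0.0484). For Rps18, Rps3 and Rps20 the groups did not overlap in Tau+, while Ch25h+/+ Tau+ replicate 1 was the highest of the 16 libraries for each. In Tau- brains their differences of -0.36, -0.36 and -0.26 missed the threshold.

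Among large-subunit proteins, Rpl13 stood at 395, 274, 266 and 308 CPM in Ch25h+/+ Tau+ and 267, 214, 216 and 208 in Ch25h-/- Tau+. Replicate 1 of Ch25h-/- Tau+ lay just above the lowest Ch25h+/+ library, so the groups overlapped. The log2 difference was -0.46 ± 0.11 (edgeR adjusted p = 0.0334). Rpl8, which lies beside the peptidyl transferase centre, stood at 365, 253, 255 and 278 against 242, 214, 219.8 and 209.7 CPM, a difference of -0.38 ± 0.10 (edgeR adjusted p = 0.0493). Rpl28 stood at 152, 125, 118 and 121 against 112, 89.4, 105 and 98.4 CPM, a difference of -0.35 ± 0.09 (edgeR adjusted p = 0.0493), and overlaps Ube2s on the opposite strand. For Rpl8 and Rpl28 the groups did not overlap. In Tau- brains Rpl13, Rpl8 and Rpl28 had -0.40, -0.32 and -0.28, short of the threshold.

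The stalk proteins form the arm of the large subunit that calls in elongation factors. Rplp0, its base, stood at 218, 168, 173 and 188 CPM in Ch25h+/+ Tau+ and 154, 157, 154 and 149 in Ch25h-/- Tau+, a difference of -0.28 ± 0.07 (edgeR adjusted p = 0.0446). Rplp2 stood at 144, 100.4, 95.6 and 113 against 92.5, 76.7, 89.1 and 83.3 CPM, a difference of -0.40 ± 0.11 (edgeR adjusted p = 0.0462). The groups did not overlap for Rplp0 and Rplp2. Rplp1, the partner of Rplp2, had means of 363 ± 62.9 and 302 ± 13.0 CPM (SD, n = 4), also with no overlap, and a difference of -0.27 ± 0.10 that missed the threshold (edgeR adjusted p = 0.119). In Tau- brains the differences of Rplp0, Rplp1 and Rplp2 were -0.19, -0.26 and -0.30, none past the threshold.

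The calls in Tau+ changed when single libraries were left out, also libraries outside the groups compared, and the reason was not tested. The count of 9 went to 0 without Ch25h+/+ Tau+ replicate 4, Ch25h-/- Tau+ replicate 3 or Ch25h-/- Tau+ replicate 4, and to 1 without Ch25h+/+ Tau+ replicate 1 or Ch25h-/- Tau+ replicate 2. It was 3 to 5 without any 1 of the 4 Ch25h+/+ Tau- libraries or Ch25h-/- Tau- replicate 2, and 16, 15 and 18 with Ch25h+/+ Tau+ replicate 2, its replicate 3 or Ch25h-/- Tau+ replicate 1 left out. Over all genes, 629 were called with the 16 libraries. The fits that gave 0 members called 108, 117 and 151, and those that gave 16, 15 and 18 called 1258, 781 and 1691. The fits that gave 1 member called 290 and 218 of all genes, and those that gave 3 to 5 called 448 to 535. The median over the 76 members was -0.09 without Ch25h+/+ Tau+ replicate 1. In that fit Rps9 passed, at -0.42 (edgeR adjusted p = 0.0280). Rps18 had -0.35, Rps3 -0.26, Rps20 -0.25, Rpl13 -0.33, Rpl8 -0.25, Rpl28 -0.27, Rplp0 -0.21 and Rplp2 -0.28, with edgeR adjusted p from 0.0610 to 0.1095. The count was 0 with library class as a covariate, which left 10 genes called of all tested, and 0 when only the 8 libraries compared were fitted, which called 106 of all genes; in Tau- brains the covariate left 0 members and 0 of all genes, and the 8 libraries alone gave 22 members and 1229 of all genes. The medians with the covariate were -0.18 in Tau+ (71 of 76 below 0) and -0.14 in Tau- (69 of 76 below 0).

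Within the rRNA-poor class, 1 library of Ch25h-/- Tau+ (replicate 1) can be set beside the 4 of Ch25h+/+ Tau+. It lay below all 4 for 29 of 76 members (38.16%), within their range for 47 and above all 4 for 0, where 17.53% of all genes lay below. The median log2 difference of the members from the Ch25h+/+ Tau+ mean was -0.16 in that library and 0.01 over all genes. The 3 rRNA-rich libraries of the group lay below all 4 for 27 members (35.53%, against 12.61% of all genes), with a median of -0.21. The reference mean includes Ch25h+/+ Tau+ replicate 1, in which every member was high. Against the mean of the other 3 libraries of that group, a comparison chosen after seeing the data, the medians were -0.05 in the rRNA-poor library and -0.10 in the 3 rRNA-rich ones. With 1 library there is no test.

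Across the 76 members, the Spearman correlation of the log2 difference was -0.25 in Tau- and -0.23 in Tau+ with GC content, 0.30 and 0.22 with mean level, and 0.18 and 0.03 with coding length. These are weak, over members that share their libraries, and are given as a description. The 38 members above the median GC content of 51.86% had median log2 differences of -0.25 in Tau- and -0.27 in Tau+, with 37 of 38 lower in each. The 38 at or below it had -0.16 and -0.17, with 31 and 33 lower. The part of GC content in the result was not tested further than by the fit with GC offsets, which left 0 members past the threshold in Tau- and 2, Rps20 and Rps9, in Tau+. Over all genes that fit called 12 in Tau- against 182 without the offsets, and 219 in Tau+ against 629. The medians in that fit were -0.17 in Tau- (66 of 76 below 0) and -0.21 in Tau+ (70 of 76 below 0). With length offsets they were -0.14 and -0.15 (66 of 76 below 0 in each). Markers of other cells also moved with the Tau+ contrast: the summed level of 6 microglial markers was 351 to 457 CPM with Ch25h and 281 to 329 CPM without it, and that of 5 astrocyte markers was 1193 to 2333 and 944 to 1117 CPM. In Tau- brains the microglial sums were 273 to 297 and 277 to 311 CPM and the astrocyte sums 862 to 902 and 807 to 1118 CPM. Sums of 2 other lists also separated: 6 cortical excitatory markers in Tau-, at 2203 to 2284 CPM with Ch25h and 1744 to 2078 without, and 4 endothelial markers in Tau+, at 178 to 209 and 147 to 176 CPM. In the other background these 2 sums overlapped, at 2034 to 2225 and 1890 to 2106 CPM for the cortical markers in Tau+ and 149 to 173 and 146 to 175 CPM for the endothelial markers in Tau-. Every marker of these 4 lists had at least 10 counts in each library, and their part in the result was not tested.

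Several members are known for roles beyond the ribosome. Rps19, the gene most often mutated in Diamond-Blackfan anaemia, had means of 109 ± 1.60 and 82.3 ± 5.55 CPM in the Tau- groups, with no overlap, and differences of -0.40 ± 0.10 in Tau- (edgeR adjusted p = 0.0617) and -0.36 ± 0.10 in Tau+ (edgeR adjusted p = 0.0600). Rpl11, which binds Mdm2 together with Rpl5, had means of 132 ± 11.1, 136 ± 28.7, 99.5 ± 9.96 and 101 ± 11.5 CPM in the 4 groups. Its groups did not overlap in either tau background, at -0.41 ± 0.12 and -0.43 ± 0.12 (edgeR adjusted p = 0.0837 and 0.0557). Rpl5 had smaller differences of -0.11 ± 0.07 and -0.08 ± 0.07, with overlapping groups. Rpl23, another Mdm2 binder, had -0.23 and -0.27, both short of the threshold.

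Rps6, whose phosphorylation by S6 kinase is a common readout of mTOR signalling, had differences of -0.20 and -0.18. Rps25, known for internal ribosome entry, lay higher in Ch25h-/- in both backgrounds, at 0.15 ± 0.12 and 0.06 ± 0.12, with overlapping groups and adjusted p = 0.477 and 0.790 from edgeR. Rps14 had -0.12 and -0.10, Rps15 had -0.22 and -0.23, and Rps4x, the X-linked form of Rps4, had -0.02 and -0.17. Rps28 had -0.61 ± 0.18 in Tau- without overlap (edgeR adjusted p = 0.0799) and -0.31 ± 0.18 in Tau+.

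Rpl38, known for the translation of Hox messenger RNAs, had -0.19 and -0.21, and Rpl10, which completes the large subunit before it joins the small, had -0.13 and -0.15. Rpl22 had -0.16 and -0.17, Rpl41 -0.23 and -0.22, and Rpl39, which lines the exit tunnel, -0.38 and -0.27. Rpl13a, known from the interferon-gamma response, had -0.36 and -0.35, and Rpl3, at the peptidyl transferase centre, -0.07 and -0.30. None of these passed the threshold in either background.

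The tau comparisons gave no member past the threshold. In Ch25h+/+, 0 of 76 members passed with edgeR's quasi-likelihood test and Benjamini-Hochberg adjustment, where 1.56% of all genes did. At an unadjusted p under 0.05 there was 1 (9.39% of all genes). DESeq2 called 0 members and 424 of all genes, and limma-voom with library quality weights called 1 and 498. The median log2 difference was 0.03, with 55 members higher and 21 lower. It was -0.08 without Ch25h+/+ Tau+ replicate 1, with 65 of 76 below 0, and -0.04 in the limma-voom fit, with 52 of 76 below 0. The 1 member was Rpl34, on chromosome 3, at 57.4, 62.8, 64.1 and 70.9 CPM in Ch25h+/+ Tau- and 65.9, 48.7, 39.8 and 48.6 in Ch25h+/+ Tau+. Its difference of -0.33 had an adjusted p of 0.373 from edgeR, and replicate 1 of Tau+ lay inside the range of the Tau- libraries while the other 3 lay below it.

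In Ch25h-/-, 0 of 76 members passed the same test, where 0.0395% of all genes did, and 3 had an unadjusted p under 0.05 (3.68% of all genes); DESeq2 and limma-voom called 0. The 3 were Rps27 and Rps7, which lay higher in Tau+ and whose groups did not overlap (1.14% of all genes), and Rpl30, which lay lower. Rpl30 stood at 55.4, 67.5, 69.4 and 70.5 CPM in Ch25h-/- Tau- and 63.7, 46.7, 40.7 and 35.7 in Ch25h-/- Tau+, a difference of -0.49 ± 0.14 (edgeR adjusted p = 0.9999). The 3 rRNA-rich Tau+ libraries lay below the Tau- group and the rRNA-poor one inside it, and Rpl30 overlaps D730044K07Rik on the opposite strand. Rpl30 alone ranged from 35.7 to 72.5 CPM over the 16 libraries and its sum with 7 copies from 70.3 to 96.1 CPM. Rps7 and Rpl30 likewise lie outside that rule. The median over the 76 was 0.01.

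The test of the difference between the 2 effects of Ch25h loss called 0 members, against 0.0338% of all genes, and 2 had an unadjusted p under 0.05 (4.13% of all genes), Rps27 and Rpl30; DESeq2 and limma-voom called 0. The median interaction was -0.02 and ran from -0.08 to 0.09 in the fits that left out 1 library.

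Of the 5 most variable members, Rpl29 fell into 3 separate levels. It stood at 1.06 to 2.06 CPM in 6 libraries, at 36.5 to 54.8 in 7 and at 82.5 to 87.5 in 3. The low level occurred in 3 Ch25h+/+ Tau- libraries, 1 Ch25h+/+ Tau+ library and 2 Ch25h-/- Tau- libraries, and the high level in Ch25h-/- Tau+ replicates 2, 3 and 4. Its processed copy Gm13841 ran the opposite way, from 8.57 CPM in the libraries of the high level to 25.7 CPM in one of the low level. The sum of Rpl29 and its 17 copies in the table ran from 27.5 to 100.4 CPM. Rpl29 passed the test in none of the 5 comparisons, alone or summed with its copies.

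Rps27, whose product carries a zinc finger, is shown with Rps27rt because the coding sequences of the pair are the same, so that a read inside them fits both genes. Rps27 lies at chr3:90212522-90213651 (-) and Rps27rt, a retrotransposed copy outside the naming rule, at chr9:114982366-114982739 (-) of GRCm38. The coding sequences have 255 bases each, stop codon included, and differ at 0 of them; the sequence of GENCODE transcripts for both is given in lower case with no part marked.
Rps27 and Rps27rt: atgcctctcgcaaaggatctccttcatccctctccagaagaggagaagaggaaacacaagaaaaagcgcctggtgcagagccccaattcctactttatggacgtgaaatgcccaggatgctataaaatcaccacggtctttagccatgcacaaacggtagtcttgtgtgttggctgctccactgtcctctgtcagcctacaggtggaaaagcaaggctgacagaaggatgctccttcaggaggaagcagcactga

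Rps27 stood at 60.8, 39.9, 34.9 and 63.6 CPM in Ch25h+/+ Tau-, at 59.7, 30.4, 21.5 and 41.5 in Ch25h+/+ Tau+, at 54.1, 23.2, 13.4 and 39.8 in Ch25h-/- Tau- and at 54.5, 64.1, 84.5 and 70.4 in Ch25h-/- Tau+. Rps27rt stood at 8.08, 19.6, 30.7 and 8.86, at 25.8, 33.8, 45.6 and 31.8, at 43.6, 38.1, 63.6 and 37.7 and at 11.5, 14.1, 11.98 and 12.3 CPM in the same order. In each group but Ch25h-/- Tau+, the library with the lowest Rps27 had the highest Rps27rt, and Ch25h-/- Tau+ was the group with the highest mean of Rps27 and the lowest of Rps27rt. The sum of Rps27 and its copies had group means of 67.0 ± 5.46, 72.8 ± 9.48, 78.8 ± 14.9 and 81.3 ± 12.4 CPM (SD, n = 4), with overlapping ranges.

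**Figure D4:**
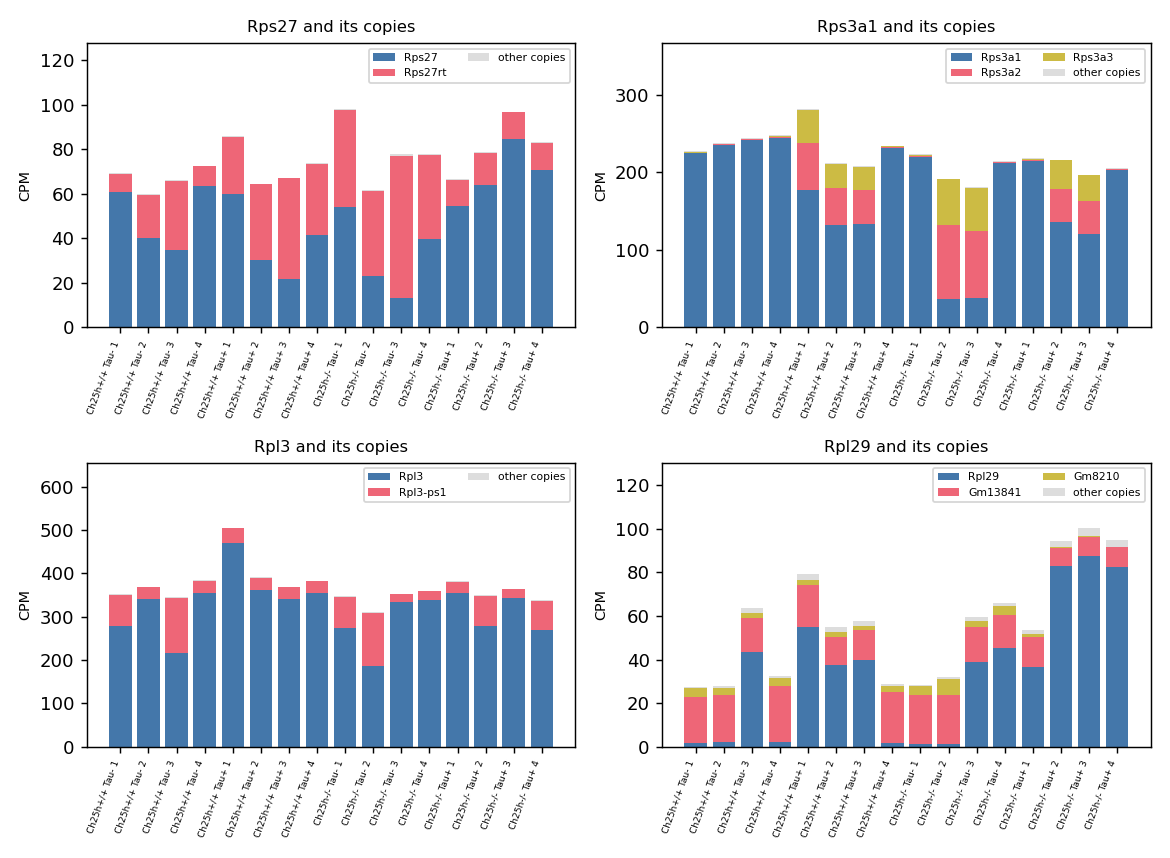
Stacked CPM (y axes, from 0) of Rps27, Rps3a1, Rpl3 and Rpl29, each with its copies, in each of the 16 libraries (x axes, by group and replicate). The split between Rps27 and Rps27rt moves from library to library while their stack stays between 59.9 and 98.1 CPM, whereas the stack of Rpl29 and its copies moves with Rpl29 from 27.5 to 100.4 CPM.

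With edgeR's quasi-likelihood test Rps27rt passed in 4 of the 5 comparisons. It was lower with tau in Ch25h-/- (-1.88 ± 0.32, edgeR adjusted p = 0.0334), higher with Ch25h loss in Tau- (1.44 ± 0.31, edgeR adjusted p = 0.0376) and lower with Ch25h loss in Tau+ (-1.46 ± 0.32, edgeR adjusted p = 0.0209). With 1 library left out these 3 calls were kept in 9, 6 and 13 of 16 fits, and in 8 of 12, 9 of 11 and 10 of 11 other settings. The interaction was -2.90 ± 0.44 (edgeR adjusted p = 0.0222). It was short of the threshold without Ch25h-/- Tau+ replicate 3 (-2.90, edgeR adjusted p = 0.0589) or replicate 4 (-2.91, edgeR adjusted p = 0.0566). With the library class covariate none of the 4 calls passed. The differences in that fit were -1.84 with tau in Ch25h-/-, 1.29 with Ch25h loss in Tau- and -1.58 in Tau+, and the interaction was -2.86 (edgeR adjusted p = 0.0566). Rps27 itself lay 1.07 ± 0.34 higher with tau in Ch25h-/- and had an interaction of 1.45 ± 0.48 with the opposite sign, neither past the threshold. The summed Rps27 had differences of 0.04 ± 0.13 with tau in Ch25h-/- and -0.07 ± 0.18 in the interaction, and passed in none of the 5 comparisons.

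Rps27a, which carries ubiquitin fused to its small-subunit protein, stood at 106 CPM in Ch25h+/+ Tau+ replicate 1 and 83.0 in Ch25h-/- Tau+ replicate 2, and at 26.2 to 56.4 in the other 14. Rpl17 stood at 61.6 and 78.5 CPM in Ch25h+/+ Tau- replicates 2 and 4 and at 67.6 in Ch25h+/+ Tau+ replicate 1. In the other 5 Ch25h+/+ libraries it stood at 22.4 to 32.5 CPM and in the 8 Ch25h-/- libraries at 19.98 to 25.5. The difference in Tau- was -1.18 ± 0.31 (edgeR adjusted p = 0.0674), with Ch25h+/+ Tau- replicates 1 and 3 at 29.8 and 28.1 CPM. Summed with its copies, Rpl17 had -0.17 ± 0.12 in that comparison. Rpl21 ran from 21.5 to 55.0 CPM and passed in no comparison. With their copies, Rpl17 (10 copies) summed to 104 to 176 CPM and Rpl21 (17 copies) to 111 to 167, a narrower relative range than the genes alone. Rps3a1, on chromosome 3 and outside the naming rule, also varied between libraries: 35.9 and 37.1 CPM in Ch25h-/- Tau- replicates 2 and 3, and up to 244 in others. Its copy Rps3a2 ran from 0.67 to 95.4 CPM and Rps3a3 from 0.66 to 59.8, and the sum of Rps3a1 and its 6 copies from 181 to 282. Rpl3 ran from 185 to 470 CPM with its pseudogene Rpl3-ps1 between 19.7 and 126, and the sum of Rpl3 and its 5 copies from 312 to 504.

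Rpsa, the laminin receptor and a small-subunit protein, had level means of 315 ± 27.0, 312 ± 41.5, 294 ± 9.38 and 290 ± 11.3 CPM in the 4 groups, with no comparison past the threshold. Its processed pseudogene Lamr1-ps1 was absent from the counts of the 8 Tau- libraries (0 in each) and had 41 to 58 in each Ch25h+/+ Tau+ library and 35 to 64 in each Ch25h-/- Tau+ library. The Tau+ groups had 2.47 ± 0.12 and 2.28 ± 0.22 CPM (SD, n = 4), at least 16.98-fold and at least 13.0-fold higher than a floor of 3 counts per library in Tau- (edgeR adjusted p = 2.432e-06 and 1.273e-05). Lamr1-ps1 lies at chr2:131904086-131904959 (+) of GRCm38 and ends 4968 bases before Prnp, the prion protein gene, at chr2:131909928-131938429 (+). Prnp had means of 775 ± 40.7, 1688 ± 204, 759.8 ± 41.3 and 1610 ± 168 CPM in the same order of groups.

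**Figure D5:**
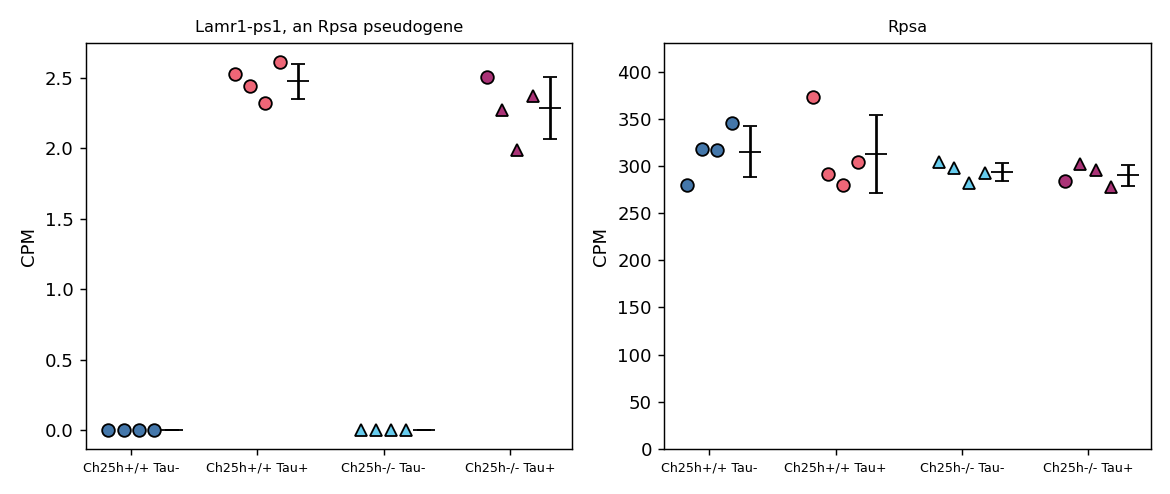
CPM (y axes) of Lamr1-ps1 (left panel) and of Rpsa (right panel) in each library, by group on the x axis; circles are rRNA-poor and triangles rRNA-rich libraries, and bars give the mean ± SD of 4. Lamr1-ps1 is at 0 in the 8 Tau- libraries and at means of 2.47 and 2.28 CPM in the Tau+ groups, while the Rpsa groups overlap.

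Ribosomal components that the naming rule leaves out were read in the same fit. Fau, which carries the small-subunit protein Rps30 fused to a ubiquitin-like part, fell with Ch25h loss in both backgrounds, with 161 ± 12.9 against 117 ± 7.20 CPM in Tau- and 159 ± 32.5 against 118 ± 6.96 in Tau+ (SD, n = 4) (edgeR adjusted p = 0.0497 and 0.0389). With the library class covariate its differences of -0.33 and -0.33 missed the threshold, and the call was kept in 3 of 16 leave-one-out fits in Tau- and 11 of 16 in Tau+. Rack1, a scaffold on the small subunit, had -0.09 and -0.14, short of the threshold. The related genes Rpl22l1, Rps27l, Rps4l, Rpl3l and Rpl7l1 and the processed pseudogene Rpsa-ps10 passed in no comparison. Rpl22l1 had differences of -0.49 in Tau- and -0.26 in Tau+ with Ch25h loss.

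The medians over the following lists of translation genes were smaller in size with Ch25h loss than those of the members. Of 77 mitochondrial ribosomal protein genes, 0 passed and 57 lay lower with Ch25h loss in each background, with medians of -0.10 and -0.10. Over all genes tested, 48.64% lay lower in Tau- and 49.34% in Tau+, and 0.812% and 2.4% were called lower. The 28 elongation and other pyrimidine-tract genes had medians of -0.03 in Tau- and -0.12 in Tau+ and 1 called lower in Tau+, Vim, an intermediate filament of glia and vessels. Vim had means of 37.9 ± 6.24, 99.3 ± 64.4, 37.4 ± 6.59 and 38.5 ± 3.32 CPM and was also the 1 call of this list with tau in Ch25h+/+ (1.39 ± 0.28, edgeR adjusted p = 0.0102). Without Ch25h+/+ Tau+ replicate 4 the differences of Vim were 0.83 with tau and -0.82 with Ch25h loss in Tau+, both still past the threshold. The call with tau was lost without Ch25h+/+ Tau- replicate 1 and with only the libraries compared, and the call with Ch25h loss without Ch25h-/- Tau+ replicate 3 and with only the libraries compared. The 30 initiation factors had medians of -0.05 and -0.06 and 2 called lower in Tau+, Eif6, which keeps the subunits apart, and Eif2b2, a subunit of the exchange factor of eIF2 (-0.41 and -0.38). The 43 biogenesis genes had medians of -0.05 and -0.03, with 1 lower call in Tau-, Ubtf, a factor of ribosomal DNA transcription (-0.32 ± 0.07), kept in 4 of the 16 fits that left out 1 library and in 10 of 12 other settings. The 25 genes that control ribosomal proteins had medians of -0.07 and 0.03, with Akt1s1, an inhibitor within the mTOR complex, called lower in both backgrounds (-0.40 ± 0.09 and -0.36 ± 0.09). The Akt1s1 call was kept in 3 of 16 such fits and 7 of 12 other settings in Tau-, and in 11 of 16 and 8 of 12 in Tau+. Those of Eif6 and Eif2b2 were kept in 11 and 8 of 16 fits and in 9 and 8 of 12 settings. With the library class covariate the calls of Vim, Eif6, Eif2b2, Ubtf and Akt1s1 with Ch25h loss were lost, and that of Vim with tau was kept. The differences in that fit were -1.42 for Vim, -0.20 for Eif6, -0.23 for Eif2b2, -0.15 for Ubtf and -0.18 in Tau- and -0.20 in Tau+ for Akt1s1. No test compared these lists with the members.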

How the data were processed

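The values used are the authors' deposited raw counts of reads per gene for 16 libraries, with 54532 entries and no normalization. A PureLink kit gave the total RNA, of which 500 ng went into a SMARTER mRNA library kit, per the labels' protocols. The submitters' processing notes name STAR 2.7 and the build GRCm38 (mm10). The counting tool, annotation and strand setting are not given in the sources used here. Counts were scaled by TMM, filtered with filterByExpr (17736 genes kept) and tested with edgeR 4.0.16 (R 4.3.3) by its quasi-likelihood F test, two-sided, in 1 fit over all 16 libraries with 1 mean per group. P-values were adjusted by Benjamini-Hochberg over all genes tested within each of 5 comparisons (threshold 0.05). CPM values use TMM-scaled library sizes; shares, Prnp, the rRNA transcript and the marker sums use total counts.

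The members and gene lists were chosen with earlier results of these data known. Named members are those with known roles, the 5 largest falls and rises past the threshold in each comparison, the 3 highest and 3 lowest per coding length, the 5 with the largest SD and those on chromosomes 3 and 19. Of other lists, up to 3 members past the threshold per comparison are named. Copies are genes that share at least 20% of a member's 50-base words in GENCODE vM21. Libraries with over 1000 CPM of CT010467.1 are called rRNA-rich. Alternatives were other normalizations and filters, DESeq2 1.42.0, limma-voom with library quality weights (limma 3.58.1) and only the libraries compared. Others were library class as a covariate, GC and length offsets, members summed with their copies, and each library left out in turn. Every limma-voom result used these weights, so it differs from the main fit in both test and weighting. The method was also run on simulated counts, and the outcome of that run is not given here. Depth was 15530352 to 25602500 counts per library, and p-values do not cover errors in assigning reads to copies.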

Additional observations from a re-analysis of the deposited data

Results flagged for a closer look

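The 37 members read here were those under the rule for named genes with Rpl8 and Rpl28 added, without Rps7 and Rpl30. In these members and the share of counts, 152 groups of 4 libraries were read for a library far from the other 3. Of these groups, 8 (5.26%) had one whose gap to its neighbour exceeded Dixon's critical share of the group's range. Chance gives about 1 in 20. In Ch25h+/+ Tau+, replicate 1 was far above the rest for Rpl23 (91.1 CPM) and Rps14 (270.5 CPM). In Ch25h-/- Tau+, replicate 1, the rRNA-poor library of that group, was far above the rest for Rpl13 (267 CPM) and Rps9 (133 CPM) and far below for Rpl29 (36.5 CPM). In Ch25h+/+ Tau-, replicate 4 was far above the rest for Rpl10 (183 CPM) and Rpl22 (81.7 CPM), and replicate 3 for Rpl29 (43.6 CPM). Ch25h loss had different effects on Rps27rt in the 2 tau backgrounds, with an interaction of -2.90 (log2) past the threshold. The call was lost without Ch25h-/- Tau+ replicate 3 or replicate 4 and with library class as a covariate. The sum of Rps27 and its copies had an interaction of -0.07.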

How the results depend on the processing

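No paired analysis was possible because the labels give no replicate numbers, and those used here follow accession order. Counts of members past the threshold are given in the order tau effect in Ch25h+/+, tau effect in Ch25h-/-, Ch25h loss in Tau-, Ch25h loss in Tau+ and interaction, against 0, 0, 1, 9 and 0 as reported. The third count was 0 with TMM factors without the ribosomal protein genes, with upper-quartile factors and with a mean of at least 50 counts. It was also 0 with the library class covariate and with GC offsets. In that order all genes gave 127, 107, 127, 0 and 12 against 182. The third count was 9 with length offsets, 13 with no filter beyond 1 count and 17 with DESeq2. Limma-voom with quality weights gave 23, and only the libraries compared gave 22. In these settings all genes gave 427, 522, 1124, 1390 and 1229 against 182. The fourth was 0 with the class covariate and with only the libraries compared, 2 with GC offsets, 16 with DESeq2, and 18 (17 lower and Rps27 higher) with limma-voom and with no filter beyond 1 count, where all genes gave 10, 106, 219, 1494, 1883 and 877 against 629. With that filter Rps27 alone gave 1 in the tau effect in Ch25h-/- and 1 in the interaction, and limma-voom gave 1 (Rpl34) in the tau effect in Ch25h+/+. With 1 library left out, the counts ran from 0 to 24 for Ch25h loss in Tau- and from 0 to 18 in Tau+, and stayed at 0 in the other 3 comparisons. The causes were not tested. The median over members stayed below 0 for Ch25h loss under each setting run, from -0.25 to -0.14 in Tau- and from -0.30 to -0.09 in Tau+. Summing members with their copies, a setting chosen after seeing the data, gave 1 and 8. None of the named results that passed the threshold changed sign.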
